A study of Mus musculus with 31 samples.

Results

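The 6 genes of solute uptake in the proximal tubule, Slc34a1, Slc5a2, Slc6a19, Slc7a13, Slc13a3 and Slc27a2, were followed across 31 BXD recombinant inbred mouse strains. They were picked by gene name: a probe was taken where the probe table of the array gave it 1 gene name and that name was on the list. This gave 6 probes, 1 for each gene, out of 16874 probes with 1 gene name for 15096 genes and 23040 probes in all. Since each gene had 1 probe, the gene mean is the value of that probe, and no second probe could be set against it.

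The tested RNA came from BXD/TyJ strains, which descend from C57BL/6J and DBA/2J parents and carry, at any locus, 1 parental allele in both copies. Strains numbered 33 and above (BXD33-42, 7 strains) belong to a later breeding of the panel and BXD1-32 (24 strains) to an earlier one, a division that is background knowledge and not in the labels. Equal amounts of RNA of 3 male mice aged 8 weeks were mixed for each strain, marked with a red dye and hybridized on 1 spotted glass array against RNA of male C57BL/6J mice of the same age marked with a green dye. No array had swapped dyes, there was 1 array for each strain, and every array shared the C57BL/6J reference, which had no array of its own. Titles name kidney as the tissue while source and tissue fields name whole brain. A ratio carries no absolute level, so the presence of kidney transcripts cannot be read from it directly.

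The proximal tubule takes back most of the phosphate, glucose, amino acids and organic acids that the glomerulus filters. Carriers in the brush border draw solutes in with sodium, whose gradient is kept by the sodium pump of the opposite, basolateral face. Slc34a1 encodes the sodium-phosphate cotransporter NaPi-IIa, which parathyroid hormone and FGF23 withdraw from the brush border. Slc5a2 encodes SGLT2, the main glucose carrier of the early tubule, and Slc6a19 encodes B0AT1, the carrier of neutral amino acids. Slc7a13 encodes AGT1, an acidic amino acid and cystine carrier of the straight tubule that is known in mouse kidney for higher levels in males. Slc13a3 encodes NaDC3, the basolateral sodium-dicarboxylate carrier whose substrates drive organic anion uptake. Slc27a2 encodes FATP2, a fatty acid carrier and very long chain acyl-CoA synthetase.

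RefSeq start regions of 300 bases (250 before and 50 after the start) were given for 4 of the 6 genes, and Slc7a13 and Slc5a2 had no entry. They are shown so that the genes can be compared by their start sequence, and the choice rests on the entries given and not on how the genes moved. All are of build GRCm38.p6 and read 5′ to 3′ on the strand of the gene. Capitals mark matches on either strand to TATAAA (the TATA box), GTTAAT (part of the HNF1 site), AGGTCA (a nuclear receptor element), AGAACA (part of the androgen receptor site), GGGCGG (the GC box) or CACGTG (the E-box). Slc27a2 lies at chr2:126552774-126553073 on the plus strand, and Slc13a3 at chr2:165473148-165473447 on the minus strand. Slc34a1 lies at chr13:55399398-55399697 on the plus strand, and Slc6a19 at chr13:73692587-73692886 on the minus strand.
Slc27a2: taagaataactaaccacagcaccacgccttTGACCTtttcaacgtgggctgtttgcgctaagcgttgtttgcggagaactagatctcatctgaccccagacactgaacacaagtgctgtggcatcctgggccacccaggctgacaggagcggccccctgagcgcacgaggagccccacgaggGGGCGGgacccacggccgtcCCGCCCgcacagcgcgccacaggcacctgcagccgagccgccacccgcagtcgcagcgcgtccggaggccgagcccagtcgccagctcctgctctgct
Slc13a3: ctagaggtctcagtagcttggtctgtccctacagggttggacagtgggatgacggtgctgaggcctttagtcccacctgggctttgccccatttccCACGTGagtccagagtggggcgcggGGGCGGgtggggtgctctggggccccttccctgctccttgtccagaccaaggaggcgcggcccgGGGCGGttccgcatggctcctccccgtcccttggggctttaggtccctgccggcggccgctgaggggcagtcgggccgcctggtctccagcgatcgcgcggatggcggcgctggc
Slc34a1: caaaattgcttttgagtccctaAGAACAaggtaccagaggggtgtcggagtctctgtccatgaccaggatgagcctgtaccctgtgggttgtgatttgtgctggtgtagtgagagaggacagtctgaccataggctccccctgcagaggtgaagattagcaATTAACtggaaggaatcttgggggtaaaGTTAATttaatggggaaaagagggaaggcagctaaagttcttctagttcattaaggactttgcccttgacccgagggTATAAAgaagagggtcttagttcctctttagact
Slc6a19: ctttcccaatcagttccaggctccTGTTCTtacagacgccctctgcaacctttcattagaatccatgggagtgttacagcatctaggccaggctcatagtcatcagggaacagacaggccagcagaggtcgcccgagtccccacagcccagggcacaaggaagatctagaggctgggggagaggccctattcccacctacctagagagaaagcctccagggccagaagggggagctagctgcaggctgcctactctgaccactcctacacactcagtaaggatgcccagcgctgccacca

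The start regions of Slc27a2 and Slc13a3 were rich in G and C, at 65.3% and 69.3%, and held 25 and 22 CpG dinucleotides. Those of Slc34a1 and Slc6a19 were at 46.7% and 57.3% and held 2 and 4, where the median over 32851 start regions was 52.7% and 7. Slc27a2 and Slc13a3 each held 2 GC boxes, which at least once occur in 35.7% of all start regions. Slc27a2 also held AGGTCA (16.3% of all start regions) and Slc13a3 an E-box (7.15%). Slc34a1 held 2 matches to GTTAAT (7.10%), TATAAA (13.6%) and AGAACA (19.0%), and AGAACA was the only match in Slc6a19. The start that the table gives for Slc6a19 lies inside its gene record, as another transcript begins farther upstream. A match describes letters in these windows and no binding was measured.

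Every array had the same sorted values, with a median of 0.0127, so the arrays had been made alike before deposit. Correlations between arrays over all probes ran from -0.0926 to 0.808. Average linkage, with the number of clusters set to 6, gave array clusters 1, 2, 4 and 5 of 10, 4, 6 and 9 arrays, while BXD15 and BXD38 each stood alone. These 2 arrays correlated with the others at a mean r of 0.191 and 0.150. Values without these 2 arrays stand beside many of the means, correlations and list counts that they moved, but not beside every r named for a list gene. The first principal component, the main axis on which arrays differ over all 23040 probes, held 20.6% of the variance. In such bulk RNA, fewer cells of a type and less RNA per cell cannot be told apart. As a description of the marker lists, the median gene of other proximal tubule markers had an SD over strains above 86.4% of all genes. That of loop and distal tubule markers was above 65.4%, of endothelial markers 56.3% and of macrophage and lymphocyte markers 51.7%. For collecting duct markers it was above 45.6%, for podocyte markers 40.4% and for neuron and glia markers 22.1%. The spread of a ratio does not show which tissue was hybridized.

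The first question was whether the mean ratio of strains to C57BL/6J differed from 0. All arrays had the strain in red and the same C57BL/6J RNA in green, so in a panel mean a strain difference, an effect of dye on the probe and the 1 reference cannot be told apart. Slc6a19 had a mean ratio above 0: its log2 ratio was -0.0062 in BXD33, the lowest strain, 0.46 at the median and 1.20 in BXD40, the highest. It was above 0 in 30 of 31 strains, with a mean of 0.48 ± 0.058 (SE, n = 31 strains; limma adjusted p = 2.25e-08). All 31 strains lay within 1.21 log2 units of each other, the narrowest range of the 6 genes. Of all 23040 probes, 57.5% were called in the same test, 27.2% higher and 30.3% lower, so a call of this kind is common on these arrays.

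Slc34a1 ran from -1.27 in BXD33 through a median of 0.26 to 1.58 in BXD1, and 23 of 31 strains were above 0. Its mean of 0.22 ± 0.099 (SE) missed the threshold (limma adjusted p = 0.0507). Both ends were single strains, since the next lowest strain, BXD9, stood at -0.67 and the next highest, BXD12, at 0.88. The call for the phosphate carrier lay close to the threshold and changed with the setting. It passed without BXD15 and BXD38 (0.25, limma adjusted p = 0.0371), with array weights (0.24, limma adjusted p = 0.0308) and in BXD1-32 alone (0.25, limma adjusted p = 0.0428), and was far from it with the array cluster as a random block (0.13, limma adjusted p = 0.661).

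Slc5a2 had the widest range, from -2.43 in BXD38 through a median of -0.58 to 2.63 in BXD20. The mean of the glucose carrier was -0.44 ± 0.19 (SE; limma adjusted p = 0.0522), with 22 of 31 strains below 0. BXD34 and BXD36 were also below -2, at -2.17 and -2.11, and BXD5 and BXD2 followed BXD20 at 1.49 and 1.10. The SD of 1.14 over strains was larger than that of 98.8% of all probes.

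Slc27a2 had the largest SD of the 6 genes, 1.23, above 99.3% of all probes. Its ratios ran from -2.74 in BXD38, -2.58 in BXD36 and -2.41 in BXD15 through a median of 0.24 to 1.76 in BXD19 and 1.89 in BXD2. These wide and opposed strain values gave a mean of 0.047 ± 0.208 (SE; limma adjusted p = 0.860). Without BXD15 and BXD38 the mean was 0.23 (limma adjusted p = 0.287), and with array weights it was also 0.23 (limma adjusted p = 0.294). For the fatty acid carrier the spread over strains was large and the mean difference from C57BL/6J was within its error.

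Slc7a13 lay between -0.96 in BXD9 and 1.43 in BXD14 with a median of 0.11, and its mean was 0.12 ± 0.085 (SE; limma adjusted p = 0.220). Slc13a3 lay between -1.35 in BXD15 and 0.64 in BXD40 with a median of 0.17, and its mean was 0.071 ± 0.072 (SE; limma adjusted p = 0.412). For Slc13a3 the low end was again set by the arrays that stood apart, as BXD38 was next at -0.63 and BXD1 at -0.49. Without these 2 arrays its mean was 0.14 (limma adjusted p = 0.0254). In all, 1 of the 6 genes was called higher and 0 lower. At an unadjusted p under 0.05, Slc34a1 (p = 0.0292) and Slc5a2 (p = 0.0302) would have joined Slc6a19.

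**Figure D1:**
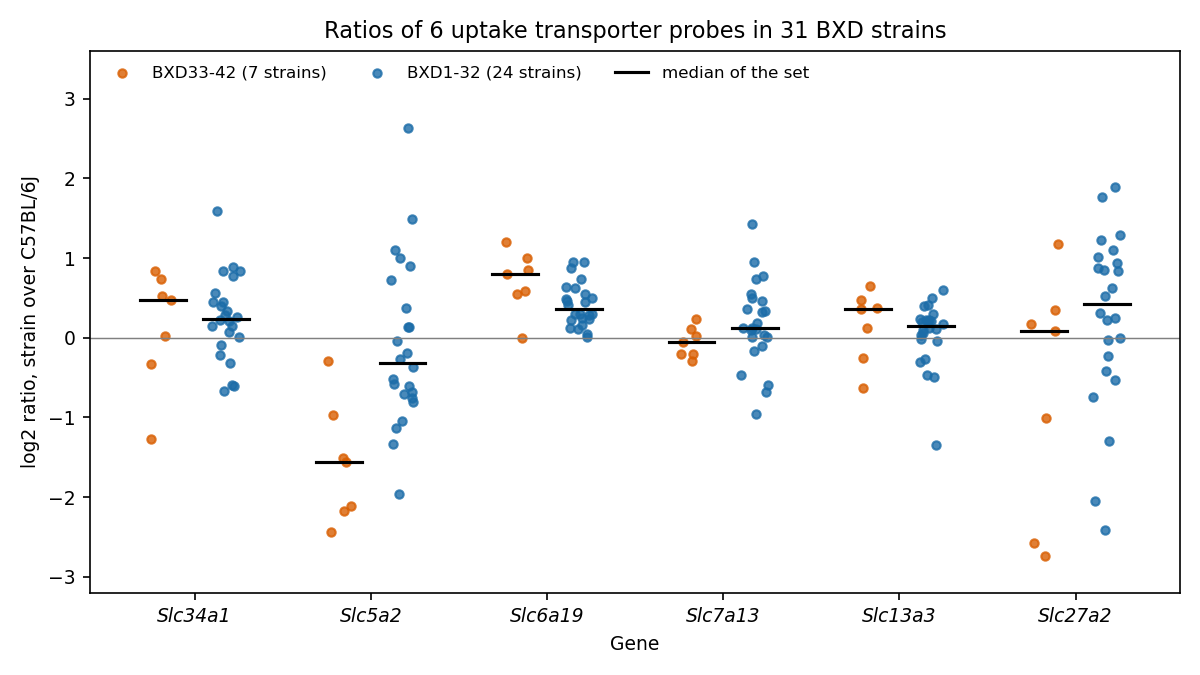
Log2 ratio of strain over C57BL/6J (vertical axis) for each of the 6 genes (horizontal axis), with 1 point for each strain, BXD33-42 in orange and BXD1-32 in blue, and a black bar at the median of each set. Slc6a19 lies above 0 in 30 of 31 strains, Slc5a2 and Slc27a2 spread most, and Slc5a2 is below 0 in all 7 strains of BXD33-42.

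All 6 genes were above 0 in 5 strains, BXD2, BXD5, BXD12, BXD20 and BXD27, all in array cluster 1. Only 1 gene, Slc6a19, was above 0 in BXD9 and BXD15, and 2 were in BXD38 and BXD42. The mean of the 6 genes was highest in BXD20 (0.99) and BXD2 (0.83), and lowest in BXD15 (-0.88) and BXD38 (-0.86). BXD15 was lowest for Slc13a3, next to lowest for Slc7a13 and among the 3 lowest for Slc27a2, whereas BXD38 was lowest for Slc5a2 and Slc27a2 and next to lowest for Slc13a3. Gapdh, a glycolytic gene, had its lowest mean in BXD15 as well (-1.20) but stood at 0.18 in BXD38, and the part of array quality in these values was not tested.

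**Figure D2:**
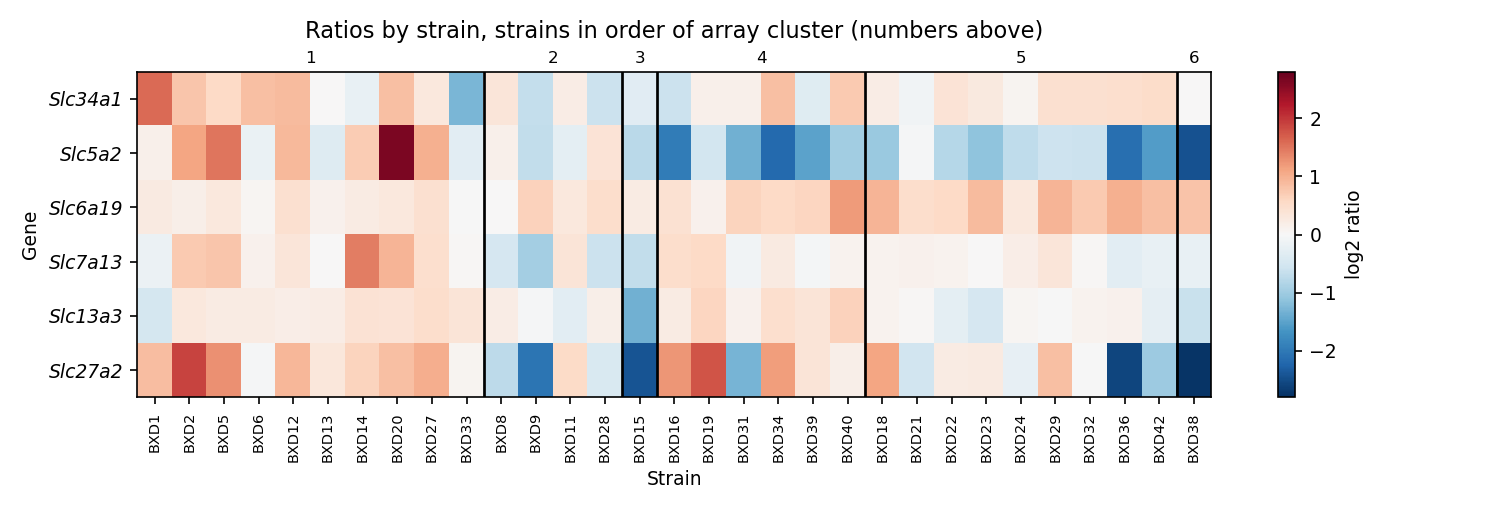
Log2 ratio (colour, red above 0 and blue below 0) of the 6 genes (rows) in the 31 strains (columns), in order of the array cluster whose number stands above each block. Slc5a2 is below 0 in all arrays of clusters 4 and 5, while Slc27a2 is lowest in BXD38, BXD36 and BXD15.

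Correlations between the 6 genes over strains asked which of them run together. Each of the 15 pairs was given Pearson's r and Spearman's rho with a 2-sided permutation test of 100000 resamples. It was also tested with a limma slope of 1 gene on the other, adjusted over all genes in both directions, and the larger adjusted p is quoted. Of the 15 pairs, 11 had r above 0 and 4 below 0. Every negative pair involved Slc6a19. With the larger adjusted p, 2 pairs passed with positive r and 1 with negative r. Of the other genes, a fit on Slc34a1 called 0%, on Slc5a2 21.3%, on Slc6a19 15.9%, on Slc7a13 4.63%, on Slc13a3 8.59% and on Slc27a2 8.35%.

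Slc7a13 and Slc27a2 ran together most closely, with r = 0.712 (permutation p = 2.0e-05) and rho = 0.773 (permutation p = 1e-05, the smallest the resampling can give) over 31 strains. The limma adjusted p was 0.00171, against a background of 2.63% of genes called with a positive slope on Slc7a13 and 5.44% on Slc27a2. Slc27a2 stood above 99.9% of all genes by its r with Slc7a13, and Slc7a13 above 99.8% by its r with Slc27a2. The ratios had the same sign in 25 of 31 strains. Without BXD9 and BXD14, the strains farthest from the median of Slc7a13, r was 0.747, and without BXD15 and BXD38 it was 0.698 (limma adjusted p = 0.0143). Within array clusters 1, 4 and 5 r was 0.410, 0.871 and 0.803, so the acidic amino acid carrier and the fatty acid carrier were positively correlated in all 3. With the cluster as a covariate r was 0.581 and missed the threshold (limma adjusted p = 0.208).

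Slc13a3 joined this pair in part. Slc13a3 and Slc27a2 had r = 0.540 (permutation p = 0.00193) and rho = 0.495 (permutation p = 0.00524), with a limma adjusted p of 0.0285. The background of positive calls was 5.44% on either gene. Without BXD15 and BXD38, which are also the strains farthest from the median of Slc13a3, r was 0.273 (limma adjusted p = 0.444). Leaving out either array alone also ended the call, at r = 0.424 without BXD15 (limma adjusted p = 0.133) and r = 0.472 without BXD38 (limma adjusted p = 0.0925). Within array clusters 1, 4 and 5 r was -0.0192, 0.523 and -0.163. Slc7a13 and Slc13a3 had r = 0.484 (permutation p = 0.00722) and rho = 0.528 (permutation p = 0.00229), with a larger limma adjusted p of 0.0710. Its r was 0.512 without BXD9 and BXD14, but 0.372 without BXD15 and BXD38 (limma adjusted p = 0.266), 0.392 without BXD15 alone and 0.234 with the cluster as a covariate. Within array clusters 1, 4 and 5 it was 0.545, 0.328 and 0.0979.

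Slc5a2 was moderately correlated with the same genes. With Slc7a13 it had r = 0.473 (permutation p = 0.00736) and rho = 0.442 (permutation p = 0.0135), and with Slc27a2 r = 0.448 (permutation p = 0.0115) and rho = 0.365 (permutation p = 0.0443). The larger limma adjusted p was 0.0622 and 0.0643, so neither passed. With spot position removed, Slc5a2 with Slc7a13 did pass (r = 0.509, limma adjusted p = 0.0335). Without BXD5 and BXD20, its highest strains, r was 0.312 with Slc7a13 and 0.416 with Slc27a2. Within array clusters 1, 4 and 5 r was 0.681, 0.0973 and 0.823 for Slc5a2 with Slc7a13, and 0.609, -0.0169 and 0.614 for Slc5a2 with Slc27a2. The difference between clusters, of 6 to 10 arrays each, was not tested. Slc5a2 and Slc13a3 had r = 0.263 (permutation p = 0.150) and rho = 0.303 (permutation p = 0.0960).

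Slc6a19 ran against Slc5a2. Their r was -0.506 (permutation p = 0.0040) and their rho -0.605 (permutation p = 4.7e-04), with a larger limma adjusted p of 0.0252 where 9.42% of genes had a negative slope on Slc5a2 and 8.47% on Slc6a19. Leaving out BXD5 and BXD20 gave -0.522. The opposition was not found in every group of arrays: within array clusters 1, 4 and 5 r was 0.583, -0.0248 and -0.588. Both genes followed the first principal component, Slc5a2 at r = -0.748 and Slc6a19 at r = 0.716, when the component is turned so that Slc6a19 is positive. With that component removed r was 0.064 (limma adjusted p = 0.997), with the array cluster as a covariate -0.030 (limma adjusted p = 0.993), and in BXD1-32 alone -0.38 (limma adjusted p = 0.207).

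Slc6a19 was weakly negative with the other genes that ran together, at r = -0.234 with Slc7a13 (permutation p = 0.206), -0.0921 with Slc13a3 (permutation p = 0.627) and -0.273 with Slc27a2 (permutation p = 0.139). The rho values were -0.290 (permutation p = 0.114), -0.312 (permutation p = 0.0883) and -0.254 (permutation p = 0.170). The larger limma adjusted p values were 0.476, 0.792 and 0.339. Within array clusters 1, 4 and 5 r with Slc7a13 was 0.290, -0.592 and -0.380. It was 0.0272, 0.206 and -0.0587 with Slc13a3, and 0.526, -0.528 and -0.0605 with Slc27a2. The negative sign was thus not found in cluster 1. With the first principal component removed the 3 pairs turned positive over all strains, to 0.11, 0.31 and 0.10. The other carriers followed that component less, at -0.428 for Slc7a13, -0.408 for Slc13a3, -0.468 for Slc27a2 and -0.101 for Slc34a1.

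Slc34a1 was the gene least tied to the rest. Its r was 0.302 with Slc27a2 (permutation p = 0.0992), 0.252 with Slc7a13 (permutation p = 0.172), 0.220 with Slc5a2 (permutation p = 0.234), 0.127 with Slc6a19 (permutation p = 0.497) and 0.0282 with Slc13a3 (permutation p = 0.879). Its rho values in the same order were 0.321 (permutation p = 0.0792), 0.288 (permutation p = 0.117), 0.216 (permutation p = 0.243), 0.0867 (permutation p = 0.643) and 0.110 (permutation p = 0.556). All larger limma adjusted p values of Slc34a1 were between 0.628 and 0.984. No other gene was called with a slope on Slc34a1 by limma, while 1274 had an unadjusted p under 0.05. Without BXD1 and BXD33, its extreme strains, r with Slc7a13 was 0.369, with Slc27a2 0.333, with Slc13a3 0.274, with Slc5a2 0.253 and with Slc6a19 0.0696. Within array clusters 1, 4 and 5 r of Slc34a1 with Slc6a19 was 0.444, 0.456 and 0.628. It was -0.0752, -0.158 and -0.429 with Slc7a13, and -0.590, 0.589 and -0.175 with Slc13a3. With Slc27a2 it was 0.437, -0.0650 and -0.207, and with Slc5a2 0.331, 0.106 and -0.620. The difference between clusters was not tested.

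**Figure D3:**
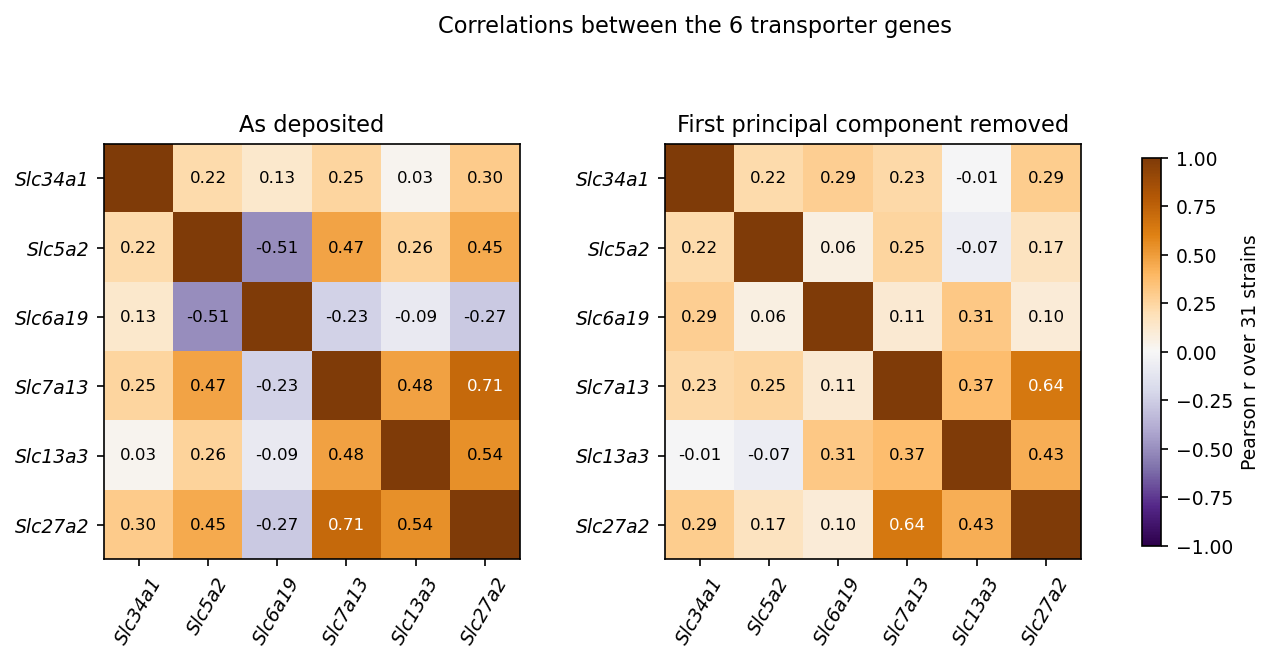
Pearson r over 31 strains (colour and printed value) for each pair of the 6 genes, with the ratios as deposited on the left and with the first principal component removed on the right. The r of 0.71 between Slc7a13 and Slc27a2 is 0.64 after removal, while the r of -0.51 between Slc5a2 and Slc6a19 is 0.06.

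**Figure D4:**
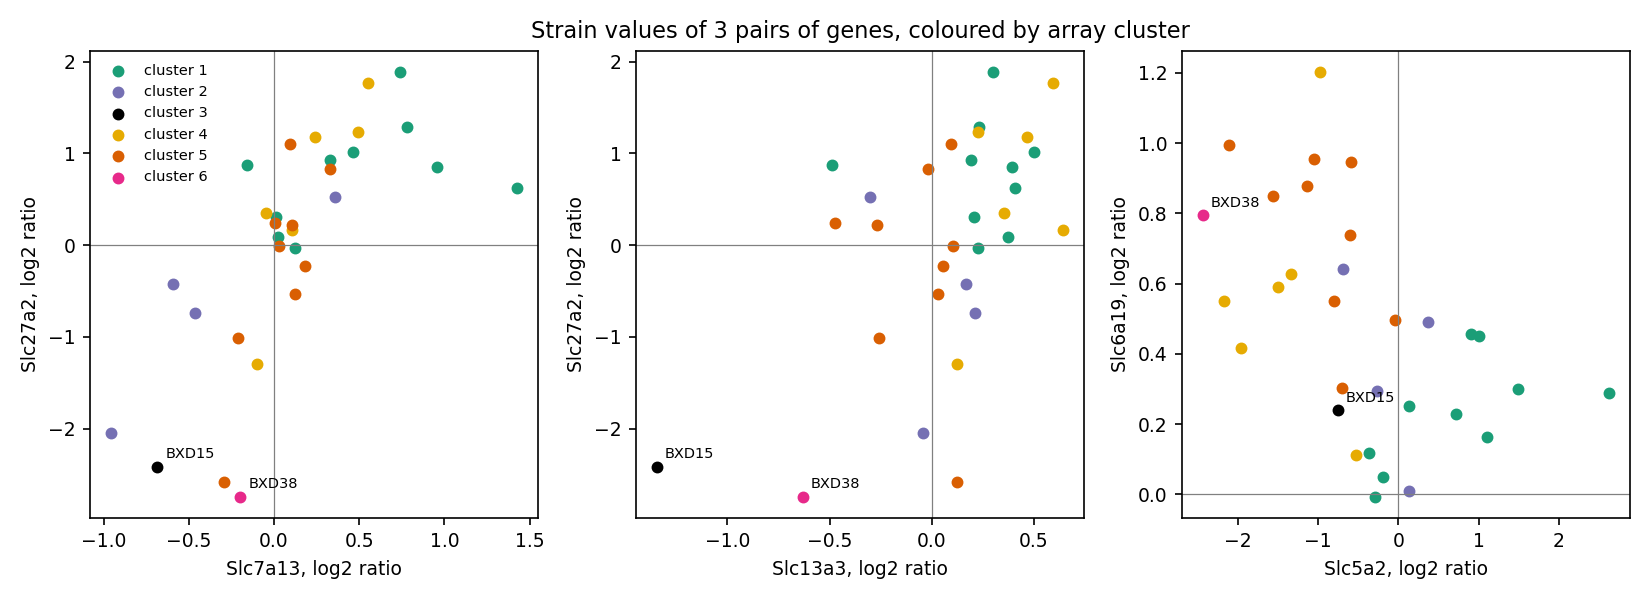
Log2 ratios of 1 gene against another for 3 pairs, with 1 point for each strain coloured by array cluster. BXD15 and BXD38 lie at the low end of the middle plot of Slc13a3 and Slc27a2, whereas the rise of Slc27a2 with Slc7a13 on the left runs through clusters 1, 4 and 5.

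BXD33-42 were set against BXD1-32 to see whether the later strains differed. Slc5a2 had a mean of -1.58 ± 0.75 in BXD33-42 (SD, n = 7) and -0.10 ± 1.02 in BXD1-32 (SD, n = 24). It lay between -2.43 and -0.29 with a median of -1.56 in BXD33-42, and between -1.96 and 2.63 with a median of -0.31 in BXD1-32, so the sets overlapped, though all 7 later strains were below 0. The difference of -1.47 ± 0.39 (SE) did not pass over all probes (limma adjusted p = 0.155). Slc6a19 had a mean of 0.71 ± 0.39 in BXD33-42 and 0.42 ± 0.27 in BXD1-32 (SD), a difference of 0.29 ± 0.13 (SE; limma adjusted p = 0.348). Slc27a2 had a mean of -0.65 ± 1.51 in BXD33-42 and 0.25 ± 1.09 in BXD1-32 (SD), a difference of -0.90 ± 0.48 (SE; limma adjusted p = 0.441).

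The remaining differences of BXD33-42 from BXD1-32 were -0.11 ± 0.24 for Slc34a1, -0.23 ± 0.20 for Slc7a13 and 0.11 ± 0.17 for Slc13a3 (SE; limma adjusted p = 0.893, 0.685 and 0.850). Of the 6 genes 0 were called, in a test that called 0.00868% of all probes. At an unadjusted p under 0.05, Slc5a2 (p = 6.69e-04) and Slc6a19 (p = 0.0331) were reached, as were 12.6% of all probes. Slc7a13 lay within a narrow band in BXD33-42, from -0.29 to 0.24, against -0.96 to 1.43 in BXD1-32, which also held more strains.

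A slope on the number of the strain was fitted after these values were seen. Slc5a2 was lower in strains of higher number, by -0.53 log2 units for each 10 strain numbers (r = -0.556, permutation p = 0.00122; rho = -0.623, permutation p = 2.2e-04; limma adjusted p = 0.0236). Slc6a19 was higher by 0.17 for each 10 (r = 0.628, permutation p = 1.4e-04; rho = 0.617, permutation p = 3.5e-04; limma adjusted p = 0.0172). Without BXD1 and BXD42 r was -0.537 for Slc5a2 and 0.601 for Slc6a19. The same fit called 5.98% of all probes, 3.42% with a negative slope and 2.56% with a positive one. The first principal component also followed strain number (r = 0.585), so breeding, order of handling and that component cannot be told apart here. The other 4 genes did not pass, with Slc27a2 nearest (r = -0.327, permutation p = 0.0738; rho = -0.352, permutation p = 0.0536; limma adjusted p = 0.221).

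The array clusters, which were built from all probes, showed where these levels lay. Slc5a2 had a median of 0.81 in cluster 1 and was above 0 in 7 of its 10 arrays, against medians of -1.42 in cluster 4 and -0.80 in cluster 5, where 0 of 6 and 0 of 9 were above 0. Slc6a19 had medians of 0.24, 0.57 and 0.85 in clusters 1, 4 and 5. Slc27a2 was split otherwise, with medians of 0.86 and 0.77 in clusters 1 and 4, -0.0095 in cluster 5 and -0.58 in cluster 2, where Slc7a13 was also low at -0.53.

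Other genes of the same pathways were taken from lists and are described by counts beside those over all 15096 genes, of which 55.8% were called, 26.5% higher and 29.3% lower than C57BL/6J. Of 47 measured uptake genes, scaffolds and regulators, 23 were called higher and 9 lower, with a median mean of 0.12, against -0.01 over all genes. In the phosphate and sulfate list, 2 of 5 were higher and 1 lower: Slc13a1, the sodium-sulfate carrier, was at 0.48, the widely expressed phosphate carrier Slc20a2 at 0.16, and Slc17a1 at -0.38. With spot position removed that list had 1 higher and 2 lower. In the glucose list, 3 of 5 were higher and 1 lower. The fructose carrier Slc2a5 was above 0 in 31 of 31 strains at 0.84 and the basolateral glucose carrier Slc2a2 was at 0.41, while Slc2a1 was at -0.90.

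In the amino acid and peptide list, 6 of 13 were higher and 2 lower. Among them were the basolateral cationic amino acid carrier Slc7a7 (0.50), the brush border cystine carrier subunit Slc7a9 (0.44) and Cltrn (0.35), which encodes collectrin, the partner that Slc6a19 needs at the brush border. In the carboxylate and fatty acid list, 5 of 8 were higher and 0 lower, led by the lipid-sensing receptor Ppara (0.44) and the brush border citrate carrier Slc13a2 (0.43). Of 7 genes of the sodium gradient and scaffolds, 4 were higher and 2 lower. Pdzk1, a scaffold that binds NaPi-IIa, was at 0.97 and above 0 in 30 of 31 strains. The sodium pump subunit Atp1b1 was at 0.65 and the sodium-bicarbonate cotransporter Slc4a4 at 0.62. The lower genes were the scaffold Slc9a3r1 (-0.42, above 0 in 5 of 31 strains) and the sodium-proton exchanger Slc9a3 (-0.38). Of 9 regulators, 3 were higher and 3 lower. Pdzk1ip1, which encodes the SGLT2 partner MAP17, was at 0.80, the parathyroid hormone receptor Pth1r at 0.39 and the vitamin D receptor Vdr at -0.58.

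The same lists were read for genes that ran with the 6 carriers over strains. With Slc27a2, 8 of the 47 were called positive and 2 negative, where the background was 5.44% and 2.91%. These were led by the anion exchanger Slc26a6 (r = 0.627), Pdzk1 (r = 0.598) and the taurine carrier Slc6a6 (r = 0.578) on the positive side and by Slc2a1 (r = -0.616) and the sodium-proton exchanger Slc9a3 (r = -0.540) on the other. With Slc13a3, 5 were positive and 4 negative (background 5.44% and 3.15%), among them Slc6a6 (r = 0.734), Pth1r (r = 0.633) and Slc3a1 (r = -0.566). With Slc5a2, 6 were positive and 3 negative (background 11.9% and 9.42%), among them the fatty acid receptor Cd36 (r = 0.670), Slc13a2 (r = 0.626), its partner Pdzk1ip1 (r = 0.544) and Slc5a11 (r = -0.626). With Slc6a19, 3 were positive and 1 negative (background 7.46% and 8.47%), and its partner Cltrn was not among them (r = -0.121). With Slc7a13 only the sodium pump regulator Fxyd2 was called (r = 0.638; background 2.63% and 2.00%), and with Slc34a1 0 were. Most of the calls with Slc27a2 and Slc13a3 were lost without BXD15 and BXD38, where 1 of the 47 was positive and 0 negative with each. These were Slc26a6 with Slc27a2 (r = 0.667) and Slc6a6 with Slc13a3 (r = 0.653), while the share of all genes called positive was then 0.749% on Slc27a2 and 0.477% on Slc13a3. With Slc5a2, 6 were positive and 4 negative without the 2 arrays, and with Slc6a19 3 and 1.

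Other proximal tubule markers were read in the same way. The median r of the 17 measured markers was 0.269 with Slc34a1, 0.361 with Slc5a2, 0.293 with Slc7a13, 0.229 with Slc13a3 and 0.323 with Slc27a2, against -0.0825 with Slc6a19. Over all genes the median r lay between 0.0020 and 0.019 for the 6 carriers, and for Slc13a3 the marker median was inside the middle 50% of all genes, which ended at 0.235. No difference between lists was tested. The endothelial list had higher medians with Slc27a2 (0.486), Slc13a3 (0.424) and Slc7a13 (0.339). Its median was slightly lower with Slc5a2 (0.353), and lower with Slc34a1 (0.0889) and Slc6a19 (-0.311). Of the 17 markers, 7 were called positive with Slc5a2, 6 with Slc27a2, 4 with Slc13a3 and 2 with Slc7a13, and 1 negative with Slc5a2. The shares of all genes called positive were 11.9%, 5.44%, 5.44% and 2.63% in the same order, and 9.42% were negative on Slc5a2. The positive marker counts, without BXD15 and BXD38, were 7 with Slc5a2, 0 with Slc27a2, 1 with Slc13a3 (Pck1) and 0 with Slc7a13. Positive calls over all genes then fell too, from 1799 to 1580 on Slc5a2 and from 821 to 113 on Slc27a2. They fell from 821 to 72 on Slc13a3 and from 397 to 237 on Slc7a13. Whether the markers lost more than this was not tested. The organic anion carrier Slc22a6 had r = 0.682 with Slc5a2 and 0.601 with Slc27a2, and the urate carrier Slc22a12 had 0.604 and 0.577. Slc13a3 was closest to Cyp2e1 (r = 0.787), the inositol oxygenase Miox (r = 0.649) and Pck1 (r = 0.626), a gluconeogenic gene. In the panel mean, 10 of the 17 markers were higher and 1 lower, where 26.5% of all genes were higher and 29.3% lower. The counts were 7 and 1 with spot position removed, and 13 and 1 without BXD15 and BXD38. Hao2 (1.17), the endocytic receptor Lrp2 (0.67) and Cyp4b1 (0.60) were at the top.

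Of 8 measured androgen-regulated kidney genes, 3 were called positive with Slc27a2, 2 with Slc7a13, 2 with Slc5a2, 1 with Slc13a3 and 0 with Slc6a19 or Slc34a1. The shares of all genes called positive were 5.44%, 2.63%, 11.9% and 5.44% on the first 4 of these. Cyp4b1, called with Slc27a2 and Slc5a2, and Kap stand in the list of proximal tubule markers too. Leaving out BXD15 and BXD38 gave 0 with Slc27a2, 1 with Slc7a13 (Adh1), 2 with Slc5a2 and 0 with Slc13a3. The alcohol dehydrogenase gene Adh1 had r = 0.664 with Slc27a2 and 0.615 with Slc7a13. The ornithine decarboxylase gene Odc1 had 0.605 and 0.598 with the same genes. Kap, an androgen-responsive transcript of the mouse tubule, had r = 0.0374 with Slc27a2 and 0.0145 with Slc7a13. Cyp2j5 was called with Slc5a2 (r = 0.786). In the panel mean 3 of the 8 were higher and 0 lower, with a list median of 0.17. Averaged over the list, BXD38 was lowest at -1.09 and BXD2 highest at 1.74, the strains in which Slc27a2 was lowest and highest. The list of other proximal tubule markers had the same ends, at -0.38 in BXD38 and 1.20 in BXD2. BXD38 is 1 of the 2 arrays that stood alone, and what sets these ends was not tested.

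**Figure D5:**
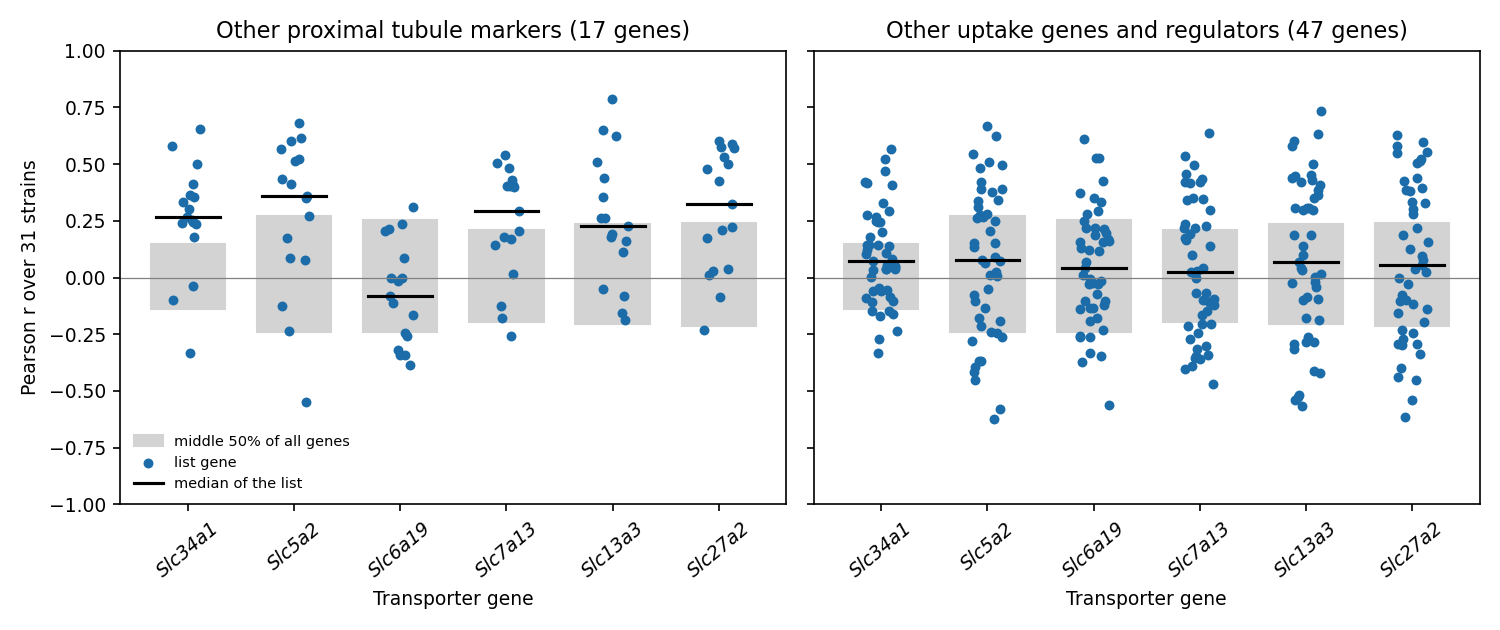
Pearson r over 31 strains (vertical axis) of each of 17 other proximal tubule markers (left) and of 47 other uptake genes and regulators (right) with each of the 6 carriers (horizontal axis). Points are genes, the black bar is the list median and the grey box holds the middle 50% of all genes. The left medians lie above 0 for each carrier but Slc6a19, at -0.0825.

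Markers of other cells were counted likewise, beside shares of all genes called of 11.9% positive and 9.42% negative on Slc5a2, 7.46% and 8.47% on Slc6a19, 2.63% and 2.00% on Slc7a13, 5.44% and 3.15% on Slc13a3, and 5.44% and 2.91% on Slc27a2. In lists of 5 to 12 genes a single call is near such shares, and nothing is read from it. Of 8 endothelial genes, 3 were called positive with Slc27a2, 3 with Slc13a3, 3 with Slc5a2 and 2 with Slc7a13, and 1 negative with Slc6a19. Leaving out BXD15 and BXD38 gave 0 positive with Slc27a2, Slc13a3 and Slc7a13, 2 with Slc5a2 and 1 negative with Slc6a19. The vascular receptor gene Flt1 had r = 0.679 with Slc27a2 and -0.546 with Slc6a19, and Eng had 0.572 with Slc13a3. The endothelial list mean lay between -0.28 and 0.23 in BXD33-42 and between -0.35 and 0.50 in BXD1-32, with BXD15 lowest and BXD20 highest. Of 6 genes of the loop of Henle and distal tubule, Umod was called positive with Slc13a3 (r = 0.598) and Slc27a2 (r = 0.551). Kcnj1 was called negative with Slc5a2 (r = -0.579). Without BXD15 and BXD38, Umod had r = 0.147 with Slc13a3 (limma adjusted p = 0.665) and 0.390 with Slc27a2 (limma adjusted p = 0.216). Kcnj1 was still called (r = -0.506), and Calb1 was then called with Slc5a2 (r = 0.469) and Slc6a19 (r = -0.480). The loop and distal tubule list mean lay between -0.41 and 0.44 in BXD33-42 and between -0.88 and 0.39 in BXD1-32. It was lowest in BXD15 and highest in BXD38. Of 10 collecting duct genes, 2 were positive with Slc6a19, Foxi1 (r = 0.653) and Scnn1g (r = 0.466). With Slc27a2, 2 were positive and 1 negative, with Slc7a13 and Slc13a3 1 each was positive, and with Slc5a2 1 was negative. Without BXD15 and BXD38, only Foxi1 with Slc6a19 was called (r = 0.637). The collecting duct list mean lay between -0.17 and 0.40 in BXD33-42 and between -0.26 and 0.33 in BXD1-32.

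Of 5 podocyte genes, 1 was positive with Slc5a2 (Podxl, r = 0.506) and 1 negative with Slc27a2 (Synpo, r = -0.533). Without BXD15 and BXD38, Podxl was still called (r = 0.486) and Synpo was not (r = -0.384, limma adjusted p = 0.251). The podocyte list mean lay between -0.24 and 0.33 in BXD33-42 and between -0.23 and 0.25 in BXD1-32. Of 7 macrophage and lymphocyte genes, Cd79a was positive with Slc5a2 (r = 0.566) and Ptprc with Slc6a19 (r = 0.542), and the list mean lay between -0.32 and 0.20 in BXD33-42 and between -0.30 and 0.22 in BXD1-32. Of 12 neuron and glia genes, Eno2 was positive with Slc5a2 (r = 0.763) and negative with Slc6a19 (r = -0.547), and Syp negative with Slc13a3 (r = -0.574). Without BXD15 and BXD38, Eno2 was still called with both. Syp was then not called with Slc13a3 (r = -0.162, limma adjusted p = 0.665), but was called positive with Slc6a19 (r = 0.604). The neuron and glia list mean lay between -0.21 and 0.085 in BXD33-42 and between -0.18 and 0.28 in BXD1-32. Ratios to a reference show no absolute level, so whether a defining marker was at 0 could not be read, and the part of these cell types in the carrier values was not tested. Against C57BL/6J, 26.5% of all genes were higher and 29.3% lower. Higher and lower were 2 and 1 of 8 endothelial genes, and 1 and 2 of 6 loop and distal tubule genes. The collecting duct had 6 and 2 of 10, and the podocyte 2 and 1 of 5. For macrophages and lymphocytes the counts were 1 and 1 of 7, and for neurons and glia 5 and 5 of 12. List medians in the same order were 0.04, -0.06, 0.21, 0.07, -0.02 and -0.06.

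The genes most like each carrier over the 31 strains were named by rank of r, as a description. Slc5a2 was nearest to A930006K02Rik (r = 0.900), 1700123O20Rik (0.884), Pip5k1c (0.861) and Psmd2 (0.860), and most opposed to Dnah1 (-0.862) and 1500012D20Rik (-0.852). Slc27a2 was nearest to Klk1b19-ps (r = 0.838), Jund (0.818), Tulp4 (0.798) and Ddx60 (0.789), and most opposed to Akap10 (-0.723) and Mcu (-0.706). Slc13a3 was nearest to Porcn (r = 0.816), Slc25a39 (0.809), Aebp1 (0.807) and Ly6c1 (0.790), and most opposed to 4930413E15Rik (-0.819) and 4930519D14Rik (-0.798). Slc7a13 was nearest to Hnrnpm (r = 0.781), Twf2 (0.771), Tle5 (0.766) and Folr2 (0.765), and most opposed to Taf1 (-0.764) and Fyco1 (-0.737). Slc6a19 was nearest to Cenpp (r = 0.761), Slc22a15 (0.754), Sf3b6 (0.748) and Tnfaip1 (0.743), and most opposed to Galnt16 (-0.790) and Igfbp2 (-0.780). Slc34a1 was nearest to Atp5e (r = 0.694), Sptssa (0.685), the organic anion carrier Slc22a7 (0.656) and Rps4x (0.650), and most opposed to 4930598N05Rik (-0.701) and Tmc5 (-0.672). When BXD15 and BXD38 were left out, the r values of the 4 nearest genes lay for Slc13a3 between 0.613 and 0.660 and for Slc27a2 between 0.668 and 0.786. None of the other 5 carriers was among the genes so named for any carrier.

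The nearest 2 measured genes on each side were set beside each carrier, in RefSeq order, with the limma slope adjusted over all genes. Fits on Slc5a2, Slc7a13 and Slc27a2 called 21.3%, 4.63% and 8.35% of all genes, and 1 of 4 neighbours was called with each. With those 2 arrays, BXD15 and BXD38, left out, Tial1 was still called with Slc5a2 (r = 0.607), while Ttpa with Slc7a13 (r = -0.510, limma adjusted p = 0.0885) and Dtwd1 with Slc27a2 (r = -0.431, limma adjusted p = 0.177) were not. Slc5a2 on chromosome 7 had r = 0.578 with Tial1 (limma adjusted p = 0.00358), and 0.431 with Cox6a2, -0.401 with Rgs10 and 0.0686 with Tgfb1i1, which did not pass. Slc7a13 on chromosome 4 had r = -0.527 with Ttpa (limma adjusted p = 0.0499), and -0.234, -0.228 and 0.119 with 4930480G23Rik, Cpne3 and Rmdn1, which did not pass. Slc27a2 on chromosome 2 had r = -0.496 with Dtwd1 (limma adjusted p = 0.0484), and -0.313, -0.283 and 0.269 with Gabpb1, Hdc and Fgf7, which did not pass.

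Slc13a3, also on chromosome 2, had its largest r with Eya2 (0.430, limma adjusted p = 0.0966), and -0.363, -0.0963 and 0.0447 with Zmynd8, Elmo2 and Ocstamp. Slc34a1 and Slc6a19 share chromosome 13. Slc34a1 had r between 0.0377 and 0.332 with Rgs14, F12, Lman2 and Pfn3. Slc6a19 had -0.414 with Tert (limma adjusted p = 0.0966), 0.338 with Slc6a3, -0.316 with Slc6a19os and 0.279 with Slc12a7. Slc6a19os is antisense to Slc6a19 by its name, and the strand specificity of the probes is not given in the sources used here.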

How the data were processed

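Ratios of 31 arrays, 1 for each strain, were taken from the deposited value table. Per the submitters' processing notes, the authors used R 2.0.0 and limma, and the deposited columns share 1 set of sorted values, as after quantile normalization. The deposited values are taken as log2 ratios of strain over C57BL/6J; neither the base nor the direction is stated, and red over green is the limma convention, so every "higher" and "lower" rests on it. No scanner intensities enter, so how far a probe stood above background cannot be given, and the number of arrays limits the precision. Array genes carry the platform table's names, and 16196 named probes matched RefSeq (GRCm38.p6) by gene number.

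Panel means, BXD33-42 minus BXD1-32 and slopes were fitted with limma 3.58.1 in R 4.3.3 (lmFit, eBayes, 2-sided) over all probes, or over all gene means for slopes and lists, with Benjamini-Hochberg adjustment at 0.05. The fits were tested on simulated data drawn independently for each array, so that test does not cover arrays that correlate in clusters, as these do. Pools of 3 mice had no repeat array, so p-values measure the spread between arrays of strains. The members, lists and tests were chosen with earlier results of these data known. Named were every member, the 4 nearest and 2 most opposed genes, 2 measured neighbours on each side, and up to 3 called genes of a list. The 2 lower genes of the sodium gradient and scaffolds list were named beyond these. Alternatives were spot position in the repeat of 480 removed, BXD15 and BXD38 left out, array weights, robust eBayes, 10% of probes of least spread left out, median centring, array cluster as block or covariate, gene means or the probe of largest SD, treat at 0.2, single breeding sets, the first principal component removed or added, and ranks.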

Additional observations from a re-analysis of the deposited data

How the results depend on the processing

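Slc6a19 stayed above 0 and past the threshold under all 11 alternatives to the panel mean, with means from 0.42 to 0.71. Members called higher numbered 1, but 3 without BXD15 and BXD38 and 2 with array weights or in BXD1-32 alone; those called lower numbered 0, but 1 (Slc5a2) with array weights, median centring or BXD33-42 alone. Probes called numbered 13238, against 5244 with array cluster as a random block, 4791 with treat and 3393 in BXD33-42 alone, where fewer arrays were used.

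For means not called, the sign turned for Slc27a2 with spot position removed (-0.098), with the cluster block (-0.35) and in BXD33-42 alone (-0.65), for Slc7a13 with the block (-0.0012) and in BXD33-42 alone (-0.054), and for Slc13a3 with the block (-0.063). BXD33-42 against BXD1-32 called 2 probes, against 1 with spot position removed or without BXD15 and BXD38, 116 with array weights and 0 with the first principal component as a covariate; 0 members were called under each.

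Positive pairs called numbered 2, but 3 with spot position removed, where Slc5a2 with Slc7a13 passed, and 1 without BXD15, BXD38 or both, with array weights, ranks, the component removed or BXD1-32 alone, and 0 with the cluster as covariate. The negative pair was lost (0) with the component removed, the cluster as covariate or BXD1-32 alone. Without BXD15 and BXD38 the r of Slc34a1 and Slc13a3 was -0.16, without BXD15 -0.11, with array weights -0.046, with the component removed -0.014 and with the cluster -0.27. Removing the component turned Slc5a2 with Slc6a19 to 0.064 and with Slc13a3 to -0.070, and Slc6a19 with Slc7a13, Slc13a3 and Slc27a2 to 0.11, 0.31 and 0.10. The cluster turned Slc6a19 with Slc13a3 to 0.012 and Slc13a3 with Slc27a2 to -0.0055, and BXD1-32 alone turned Slc34a1 with Slc6a19 to -0.16. The cause of these changes was not tested. Over the 47 uptake genes 23 were higher and 9 lower, against 20 and 11 with spot position removed. That setting gave 1 and 2 for phosphate and sulfate (2 and 1) and 4 and 1 for carboxylate and fatty acid (5 and 0). It gave 1 and 2 for podocyte (2 and 1) and 2 and 2 for endothelium (2 and 1). Macrophage and lymphocyte genes went to 1 and 2 (1 and 1), and neuron and glia genes to 2 and 4 (5 and 5). Other proximal tubule markers went to 7 and 1 (10 and 1). Regulators went to 2 and 3 (3 and 3), and androgen-regulated genes to 2 and 0 (3 and 0). The remaining lists kept their counts. The alternatives without BXD15 or BXD38 alone, the list, likeness and neighbour slopes without both, and the slope on strain number were chosen after seeing the data. No paired analysis was possible because the groups share no replicate numbers. Probe signal over background is unknown, which limits what a small ratio can show.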

Other observations

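Position in the repeat of 480 spots was close for 4 of the 6 carriers, at 302 (Slc6a19), 305 (Slc13a3), 306 (Slc5a2) and 309 (Slc7a13), against 54 for Slc34a1 and 68 for Slc27a2. The closest pair over strains, Slc7a13 and Slc27a2, stood at 309 and 68. With the median of each position removed, r was 0.71 for that pair and -0.52 for Slc5a2 with Slc6a19. The part of spot position in these correlations was not tested.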
